A study of Equus caballus with 3 samples.

Results

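Interferon-stimulated genes are described here across equine mesenchymal stromal cells (MSCs) of 3 tissue sources, namely peripheral blood (PB), bone marrow (BM) and fat (adipose tissue, AT). The 7 genes *ISG15*, *GBP1*, *IFI6*, *IFI44L*, *IRF1*, *EPSTI1* and *MX1* were chosen by name, out of 29927 gene rows over the 3 deposited matrices and 19625 genes with 1 or more unique molecular identifier (UMI) in a retained cell. All 7 were present in each matrix. The cells came from a single healthy 10-year-old warmblood mare, had been expanded for 2 passages and received no treatment, and each tissue source was captured as 1 library on a droplet platform that reads the 3′ ends of transcripts. A difference between sources is therefore also a difference between libraries, and no test was possible. The 95% intervals below are exact Poisson intervals for sums of UMIs and exact Clopper-Pearson intervals for shares of cells, and they cover counting error only.

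Interferons are secreted proteins that bind receptors at the cell surface and activate Janus kinases and STAT transcription factors. Type I and type III interferons act in this way mainly on promoters of antiviral genes, whereas the response to IFN-gamma also runs through the factor IRF1. Interferon-stimulated genes can also be switched on in cells that sense their own or foreign nucleic acids, and MSCs are known to answer IFN-gamma by raising genes of antigen presentation and T cell attracting chemokines.

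Barcodes were retained where they held between 2500 and 15000 UMIs, no more than 3% of them mitochondrial, and numbered 5403 in AT, 5580 in BM and 5318 in PB. They held between 39980656 and 41622445 UMIs per source, and the median cell had 7291, 6874.5 and 7750 UMIs, so that 3 UMIs over a source correspond to 0.0721 to 0.0750 CPM (counts of the gene per 1e+06 UMIs of the retained cells). The source name deposited with all 3 samples refers to blood mononuclear cells, and the sources follow the sample titles. All 12 stromal markers on the list used (among them *COL1A1*, *LUM* and *VIM*) had UMIs in each source, with summed levels of 31863, 28670 and 41107 CPM. The 11 haematopoietic markers in the matrices summed to 7.45, 12.9 and 5.57 CPM, mostly from *CD68*, and the leukocyte gene *PTPRC* had 0 UMIs in all 3. The libraries of AT and PB had 5788 barcodes in common: 100% of the retained PB barcodes were also in the AT matrix, where 5281 of them lay outside the limits and 37 were retained as AT cells too. The other library pairs shared 106 (AT and BM) and 57 (BM and PB) barcodes. The part of these shared barcodes in the results was not tested beyond the values without them. Without the 74 retained AT barcodes that were in the PB matrix, every count of members given below for AT was the same.

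Of the 7 genes, 6 had their highest level in the PB library, and *EPSTI1* had its highest level in AT. *IRF1*, the transcription factor of the group, on chromosome 14 of EquCab3.0, was found at 6.40 CPM (95% interval 5.64 to 7.24) in AT, 5.62 CPM (4.91 to 6.40) in BM and 18.1 CPM (16.8 to 19.5) in PB. The AT and BM intervals overlapped, and the PB level was 2.83-fold that of AT and 3.23-fold that of BM. Cells with an *IRF1* UMI made up 4.50%, 3.75% and 12.0% of the cells, and 1.57%, 1.51% and 4.44% after each cell was thinned to 2500 UMIs.

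*ISG15*, on chromosome 2, encodes a ubiquitin-like protein that is secreted and also conjugated to other proteins. Its level was 26.8 CPM (25.2 to 28.5) in AT, 36.2 CPM (34.3 to 38.1) in BM and 50.5 CPM (48.4 to 52.7) in PB, with no overlap of the intervals. It was found in 14.8% (13.9 to 15.8%), 16.4% (15.4 to 17.4%) and 20.01% (18.9 to 21.1%) of cells, or in 5.87%, 6.59% and 8.05% at 2500 UMIs per cell. The difference was below 2-fold for each pair of sources.

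*MX1*, on chromosome 26 beside *MX2* in the RefSeq annotation, encodes a dynamin-like GTPase that blocks viruses. Only 46, 81 and 164 UMIs of it were counted in AT, BM and PB, which gave 1.15 CPM (0.842 to 1.53), 2.01 CPM (1.60 to 2.50) and 3.94 CPM (3.36 to 4.59). *IFI44L*, on chromosome 5 beside *IFI44*, is an interferon-induced gene with a role in feedback on the antiviral response. It had 20, 91 and 361 UMIs, corresponding to 0.5002 CPM (0.306 to 0.773), 2.26 CPM (1.82 to 2.78) and 8.67 CPM (7.80 to 9.62). Both genes thus had the order PB, BM, AT, and no neighbouring intervals overlapped with levels scaled by total UMIs.

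*IFI6*, also on chromosome 2, encodes a small hydrophobic membrane protein with an anti-apoptotic role. It was the most widely detected member in BM and PB, at 93.3 CPM (90.3 to 96.3) in AT, 105 CPM (102 to 108) in BM and 168 CPM (164 to 172) in PB. The gene had a UMI in 46.3%, 50.2% and 67.8% of cells in the order AT, BM, PB (19.8%, 23.3% and 34.2% at 2500 UMIs). The PB level was 1.80-fold that of AT, and the order of AT and BM depended on the scaling: the log2 difference, AT minus BM, was -0.17 with total UMIs and 0.11 with TMM factors. These factors, 0.928 in AT and 1.13 in BM, also bring the AT and BM levels of *ISG15* and *MX1* closer together. The intervals given for those genes hold for scaling by total UMIs.

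*GBP1*, on chromosome 5, encodes a guanylate-binding GTPase that is among the genes most strongly induced by IFN-gamma. It was near the limit of detection in AT (48 UMIs, 1.20 CPM, 0.885 to 1.59) and in BM (49 UMIs, 1.22 CPM, 0.901 to 1.61), with overlapping intervals. In PB, 539 UMIs gave 12.9 CPM (11.9 to 14.1), 10.8-fold the AT and 10.6-fold the BM level. No BM cell held more than 1 *GBP1* UMI and the richest AT cell held 4, whereas the richest PB cell held 78. Guanylate-binding proteins are paralogs of similar sequence, and of the other members of the family on the list used, *GBP2*, *GBP3*, *GBP4* and *GBP7* had no row under these names, so reads of a paralog assigned to *GBP1* cannot be told apart from its own.

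*EPSTI1*, on chromosome 17, was first described as a gene induced in breast epithelium by contact with stromal fibroblasts, and responds to interferons in many cells. It was found at 206 CPM (202 to 211) in AT, 32.2 CPM (30.5 to 34.0) in BM and 22.7 CPM (21.3 to 24.2) in PB, and in 68.6%, 18.4% and 14.3% of cells (38.4%, 7.35% and 5.08% at 2500 UMIs). The AT level was 6.40-fold that of BM and 9.09-fold that of PB. The cultures held no identified population without interferon-stimulated genes, and the contribution of free RNA to the shares of cells is therefore unmeasured. This matters most for *GBP1*, *IFI44L* and *MX1* in AT and BM, which were found in at most 1.58% of cells and mostly as single UMIs.

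**Figure D1:**
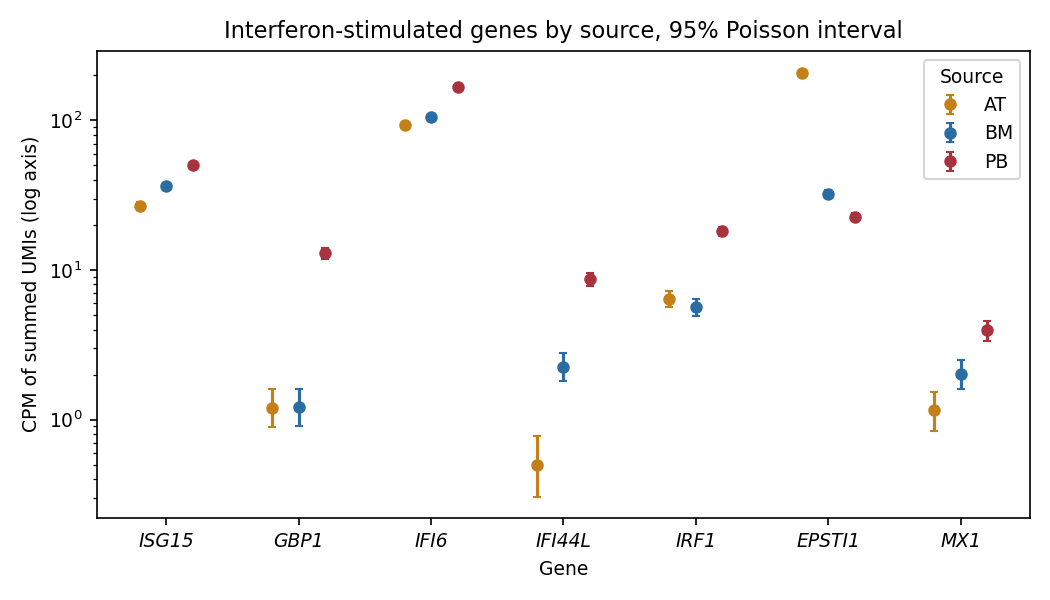
CPM of summed UMIs (log axis) of the 7 genes in the retained cells of AT, BM and PB, with 1 library per source and bars for the exact 95% Poisson interval. *EPSTI1* is highest in AT at 206 CPM, and the PB point is the highest for the other 6 genes.

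Against the background of all genes at 5 CPM or more in either source, differing 2-fold means a difference of log2(CPM + 1) past 1. Between AT and BM, 2 of the 7 members differed that much, beside 11.3% of 8918 genes: *EPSTI1*, higher in AT by 2.64 on the log2 scale (2.56% of genes were higher in AT and 8.7% in BM), and *IFI44L*, higher in BM by a difference (AT minus BM) of -1.12, which was -0.97 with TMM factors. Between AT and PB, 5 of the 7 differed 2-fold, beside 10.5% of 8633 genes, and 4 of these (*GBP1*, *IFI44L*, *IRF1* and *MX1*) were higher in PB, beside 6.14% of genes in that direction and 4.32% higher in AT. Between BM and PB the count was 3 of 7 beside 8.48% of 8930 genes, and *GBP1*, *IFI44L* and *IRF1* were all higher in PB, beside 2.34% in that direction. With a pseudocount of 25 CPM, which weighs down genes at low levels, the counts were 1, 1 and 0. The medians over the 7 members were -0.17 (AT minus BM), -1.20 (AT minus PB) and -0.71 (BM minus PB), beside medians over all genes of -0.25, -0.03 and 0.21. With TMM factors the medians over the members were 0.11, -1.19 and -0.91, beside 0.03, 0.01 and -0.02 over all genes, so the sign for AT and BM turned. Members below 5 CPM in both sources of a pair were counted as well. Of those that passed this limit, 1 of 4 (AT and BM), 4 of 6 (AT and PB) and 3 of 6 (BM and PB) differed 2-fold, since *IFI44L* dropped out of the first pair and *MX1* out of the AT and PB pair. In both pairs with PB, *GBP1* and *IFI44L* passed the limit through PB alone, where they were higher. The counts of 2, 5 and 3 were the same after removal of the cells richest in *ISG15* that are described below. *GBP1* then differed by -1.99 instead of -2.65 (BM minus PB). The *ISG15* difference went from -0.47 to -0.23 (BM minus PB) and from -0.89 to -0.44 (AT minus PB), where a fall is built in because *ISG15* chose the cells.

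Of the genes that send and receive interferon signals, the 5 interferon genes present in the matrices had 7 UMIs in all 16301 cells, 5 of *IFNE* and 2 of *IFNK*. *IFNG*, *IFNB1* and *IFNA1* had 0 UMIs, where the floor of 3 UMIs per library is at most 0.0750 CPM. Of 5 interferon receptor genes at 5 CPM or more, only *IFNGR2*, a chain of the IFN-gamma receptor, differed 2-fold. This gene was lower in AT than in BM and in PB, beside 8.7% and 6.14% of all genes in those directions. No receptor gene differed between BM and PB, and 1 of 5 is not read as particular to this list. *IFNGR2* was found at 1.83 CPM in AT (73 UMIs), 23.1 CPM in BM and 15.4 CPM in PB. *IFNGR1*, the ligand-binding chain, was at 49.5, 30.6 and 31.2 CPM, and *IFNAR1*, a chain of the type I receptor, was at 33.4, 48.1 and 41.5 CPM. Of the genes of the JAK-STAT step, *JAK2*, named after its values were seen, was at 9.50 CPM in AT, 25.3 CPM in BM and 20.1 CPM in PB. The feedback inhibitor *SOCS1* was at 6.65, 19.4 and 40.7 CPM in AT, BM and PB, and *SOCS3* of the same list was at 6.403, 19.9 and 11.3 CPM.

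Further downstream, 3 of 13 antiviral effectors at 5 CPM or more were 2-fold higher in BM than in AT, 3 of 15 were higher in PB than in AT, and 2 of 16 were higher in PB than in BM, while none was higher in the other direction. *LY6E*, a membrane protein that restricts coronaviruses, was found at 56.9, 129 and 133 CPM in AT, BM and PB. *IFI27*, the most abundant gene of that list, did not follow this order, at 405, 323 and 388 CPM. In antigen presentation, 2 of 12, 3 of 12 and 2 of 12 genes differed in these pairs, all lower in the source named first. *PSMB9*, a catalytic subunit of the immunoproteasome, was at 3.83 CPM in AT, 10.7 CPM in BM and 22.8 CPM in PB. The medians of the antiviral list were -0.48 (AT minus BM), -0.63 (AT minus PB) and -0.06 (BM minus PB), beside -0.25, -0.03 and 0.21 over all genes. Of the genes that lean to IFN-gamma, 2 of 5, 3 of 7 and 2 of 7 were 2-fold lower in the source named first, and of the NF-kB response genes 4 of 7, 4 of 8 and 2 of 9. The 2 IFN-gamma genes that differed between BM and PB were *CXCL10* and *CXCL11*, which passed 5 CPM through PB alone, and the 47 PB cells with 2 or more *GBP1* UMIs held 88.1% and 98.7% of their UMIs. Both were also among the 3 that differed between AT and PB, and passed through PB alone there too. Over all genes, 8.7%, 6.14% and 2.34% were 2-fold lower in the source named first, and with so few genes per list a count of 2 or 3 is not read as particular to it. The chemokine gene *CCL2* was found at 16.3 CPM in AT, 553 CPM in BM and 560 CPM in PB.

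Within each source, *ISG15* was distributed very unevenly over the cells. Cells without any *ISG15* UMI were 85.2% in AT, 83.6% in BM and 80.0% in PB, and at the other end 5 or more UMIs were found in 8 AT, 21 BM and 54 PB cells. These cells, called *ISG15*-high below, made up 0.148% (0.0639 to 0.292%) of AT-, 0.376% (0.233 to 0.575%) of BM- and 1.02% (0.764 to 1.32%) of PB-derived MSCs. The intervals of AT and BM overlapped, and that of PB lay above both. The intervals of BM and PB overlapped after thinning to 2500 UMIs (0.0738 to 0.306% and 0.186 to 0.511%) and with a limit of 10 UMIs (0.137 to 0.421% and 0.304 to 0.693%). The highest cells held 47, 93 and 86 *ISG15* UMIs, and the *ISG15*-high cells together carried 15.1%, 26.9% and 38.7% of all *ISG15* UMIs. At the limit itself, 4, 8 and 10 cells had 4 UMIs and 1, 4 and 11 cells had 5. The ratio of variance to mean at 2500 UMIs per cell (the Fano factor, about 1 for random sampling) was 1.90 in AT, 8.75 in BM and 4.65 in PB. It ranked 7 of 1898, 1 of 1869 and 1 of 1567 genes with a mean within 1.5-fold of that of *ISG15*, whose medians were 1.01, 1.02 and 1.02. In BM the 2 highest cells held 93 and 83 *ISG15* UMIs and the next 24, and the factor without these cells was not computed. Cells with 20 or more UMIs numbered 3 in AT, 4 in BM and 11 in PB, so the factors are not read as an order of the sources. Among the other members, *GBP1* in PB (4.54) ranked 5 of 2275, and *IFI6*, although found in most PB cells, had a Fano factor of 1.07.

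**Figure D2:**
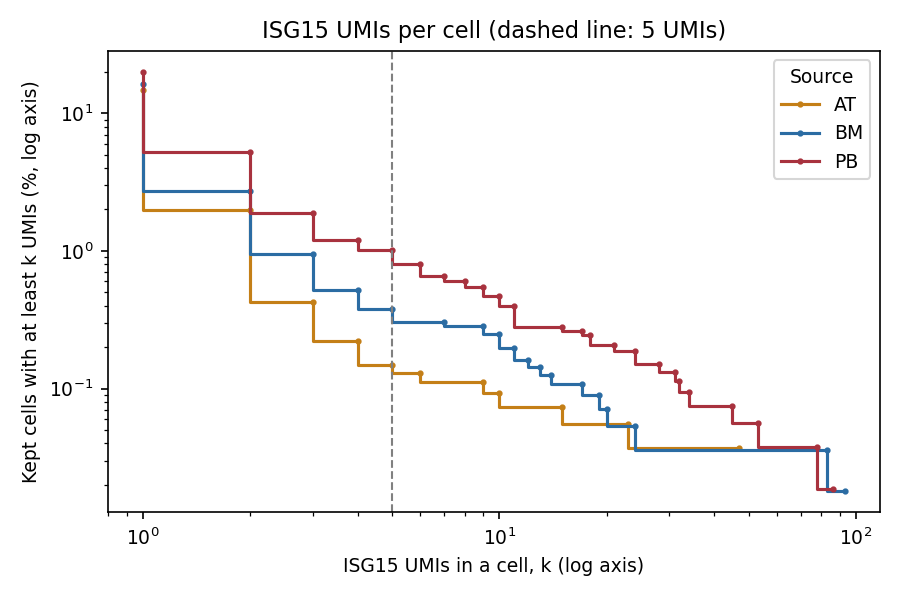
Share of retained cells (percent, log axis) with at least k *ISG15* UMIs against k (log axis) in AT, BM and PB, with a dashed line at 5 UMIs. At 5 UMIs the shares are 0.148%, 0.376% and 1.02%, and the curves of BM and PB run to 93 and 86 UMIs.

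The *ISG15*-high cells did not stand apart in depth or mitochondrial content. Their median UMI count was 7238 in AT, 6657 in BM and 8279 in PB, beside 7291, 6875 and 7744 in the other cells, and their median mitochondrial share was 1.42%, 1.84% and 1.46%, beside 1.42%, 1.96% and 1.55%. Of the 8, 21 and 54 cells, 0, 2 and 2 were among the 5% of cells with the highest Scrublet doublet score. They kept the stromal markers: the summed level of these was 31185, 30428 and 42883 CPM, beside 31865, 28664.5 and 41090 CPM in the other cells, and *CSF1R*, *LYZ* and *PTPRC* had 0 UMIs in them. Of the haematopoietic list, 10 of 11 genes had 0 UMIs in the *ISG15*-high cells of each source, and 1, 3 and 3 UMIs were counted in all. All 6 endothelial markers were at 0 there. Plasmacytoid dendritic cells make large amounts of interferon. Of their 6 markers on the list used, 2 had a row in the matrices, *TCF4* and *IRF8*, and *CLEC4C*, *IL3RA*, *LILRA4* and *GZMB* had none. *TCF4*, which was also found in the other cells, was at 114 CPM (84.3 to 150) beside 99.0 CPM in PB, 79.6 CPM (41.1 to 139) beside 50.9 CPM in BM and 78.8 CPM (25.6 to 184) beside 49.9 CPM in AT. *IRF8* had 2 UMIs in the *ISG15*-high cells of PB and 0 in those of AT and BM. No *ISG15*-high barcode of AT was found in the BM or PB matrix, whereas all 54 of PB were in the AT matrix. Among retained barcodes none was *ISG15*-high in more than 1 library, but 4 of the *ISG15*-high PB barcodes also had 5 or more *ISG15* UMIs in AT, below the limit of 2500 UMIs. Of the *ISG15*-high barcodes, 1 of PB was also retained in AT and 1 of BM was also retained in PB.

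The other 6 members were higher in the *ISG15*-high cells than in the rest of the same library, with levels there taken as CPM of the UMIs other than those of *ISG15*. In PB, all 6 were at least 2-fold higher, beside 2.49% of 8183 genes. The median of the 6 was 3.40 on the log2 scale, beside -0.06 over all genes. In BM, 6 of 6 were higher beside 5.92% of 8681 genes, with a median of 2.26 beside -0.07. In AT, 5 of 6 were higher beside 12.3% of 8051 genes, with a median of 3.41 beside -0.20. The large share of AT genes past 2-fold comes with only 8 cells and 63622 UMIs, in which 3 UMIs are 47.3 CPM, so a single gene there is poorly measured. Of the members counted as higher, *IFI44L* and *IRF1* in AT and *GBP1* and *IRF1* in BM rest on 1 to 3 UMIs in the *ISG15*-high cells, at or under that floor. The limit of 5 CPM set for the background was passed by 5 of the 6 in PB, 3 in BM and 3 in AT, of which 5, 3 and 2 were 2-fold higher. The 2 in AT were *IFI6* and, on 1 UMI, *IRF1*.

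*MX1* was found at 59.0 CPM (38.6 to 86.5) in the *ISG15*-high cells of PB, beside 3.35 CPM in the other PB cells. In BM it was at 59.7 CPM (27.3 to 113) beside 1.80 CPM, and in AT at 158 CPM (75.6 to 290) beside 0.902 CPM. These levels rest on 26 UMIs in 13 cells, 9 UMIs in 7 cells and 10 UMIs in 3 cells. *IFI44L* was at 109 CPM (80.4 to 145) beside 7.60 CPM in PB and at 66.4 CPM (31.8 to 122) beside 2.02 CPM in BM, where all 3 cells with 2 or more *IFI44L* UMIs were *ISG15*-high. In AT it had 2 UMIs in the *ISG15*-high cells. Both antiviral genes were thus more than 10-fold higher in the *ISG15*-high cells of BM and PB.

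*IFI6*, which was also found in most other PB cells, was 3.10-fold higher in PB (509 CPM, 444 to 580, beside 164 CPM) and 3.51-fold higher in BM (365 CPM, 275 to 475, beside 104 CPM). In AT it was 5.10-fold higher (473 CPM, 319 to 675, beside 92.7 CPM). It was present in 51 of 54, 20 of 21 and 6 of 8 *ISG15*-high cells. *IRF1* was at 95.4 CPM (68.7 to 129) beside 17.3 CPM in PB, and it had 3 UMIs in BM and 1 UMI in AT in these cells, at or under the floor of 3 UMIs.

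*EPSTI1* had unlike values in the *ISG15*-high cells of the 3 sources. In PB it was 9.13-fold higher in *ISG15*-high cells (191 CPM, 152 to 236, beside 20.9 CPM), and the 3 PB cells with 8 or more *EPSTI1* UMIs were all *ISG15*-high. In BM it was 2.49-fold higher, from 12 UMIs in 8 cells. After thinning to 2500 UMIs, the 9 *ISG15*-high BM cells left held no *EPSTI1* UMI (-5.05 on the log2 scale). They are too few to give a direction. In AT, where its level was already 206 CPM in the other cells, it was 1.99-fold higher from 26 UMIs, and of 36 AT cells with 8 or more *EPSTI1* UMIs, 28 had no *ISG15* UMI. The AT cells without *ISG15* held 204 CPM (199 to 209) of *EPSTI1*, and these are 85.2% of the AT cells, so this level had to lie near that of the whole library. The Fano factor of *EPSTI1* in AT was 1.16 and ranked 61 of 483 genes of like mean (median 1.05). The difference between sources was not tested.

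Below the limit of 5 UMIs, levels of some members were also higher in cells with more *ISG15* UMIs. In AT, *IFI6* was at 90.6 CPM (87.4 to 93.9), 97.3 CPM, 133 CPM (106 to 163) and 239 CPM (160 to 343) at 0, 1, 2 and 3 to 4 *ISG15* UMIs. In PB, *GBP1* went from 5.92 CPM (5.12 to 6.82) in the 4254 cells without *ISG15* to 9.31, 23.5 and 61.5 CPM in cells with 1, 2 and 3 to 4 UMIs. It reached 269 CPM (208 to 343) at 5 to 9 and 799 CPM (679 to 933) at 10 or more UMIs. These levels rest on few cells. The 65 *GBP1* UMIs at 5 to 9 lay in 9 of 29 cells, and the 159 at 10 or more in 15 of 25. Single cells held 78, 34 and 21 of the 159, and the intervals do not cover this spread between cells. *IFI44L* in PB went from 6.54 CPM without *ISG15* to 32.1 CPM at 3 to 4 and 116 CPM (73.2 to 173) at 10 or more UMIs. *IRF1* went from 15.6 CPM to 61.5 CPM at 3 to 4 UMIs and 112 CPM (73.8 to 163) at 5 to 9, and was at 75.3 CPM (42.2 to 124) at 10 or more, with overlapping intervals. In BM, the 761 cells with 1 *ISG15* UMI differed little from the 4667 without it: *IFI6* was at 112 and 103 CPM, *EPSTI1* at 31.6 and 32.2 CPM and *IFI44L* at 1.51 and 2.06 CPM. At 2 *ISG15* UMIs, *IFI6* in BM was at 79.7 CPM (61.9 to 101). *GBP1* in BM had 0 UMIs in the cells with 3 to 9 *ISG15* UMIs.

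**Figure D3:**
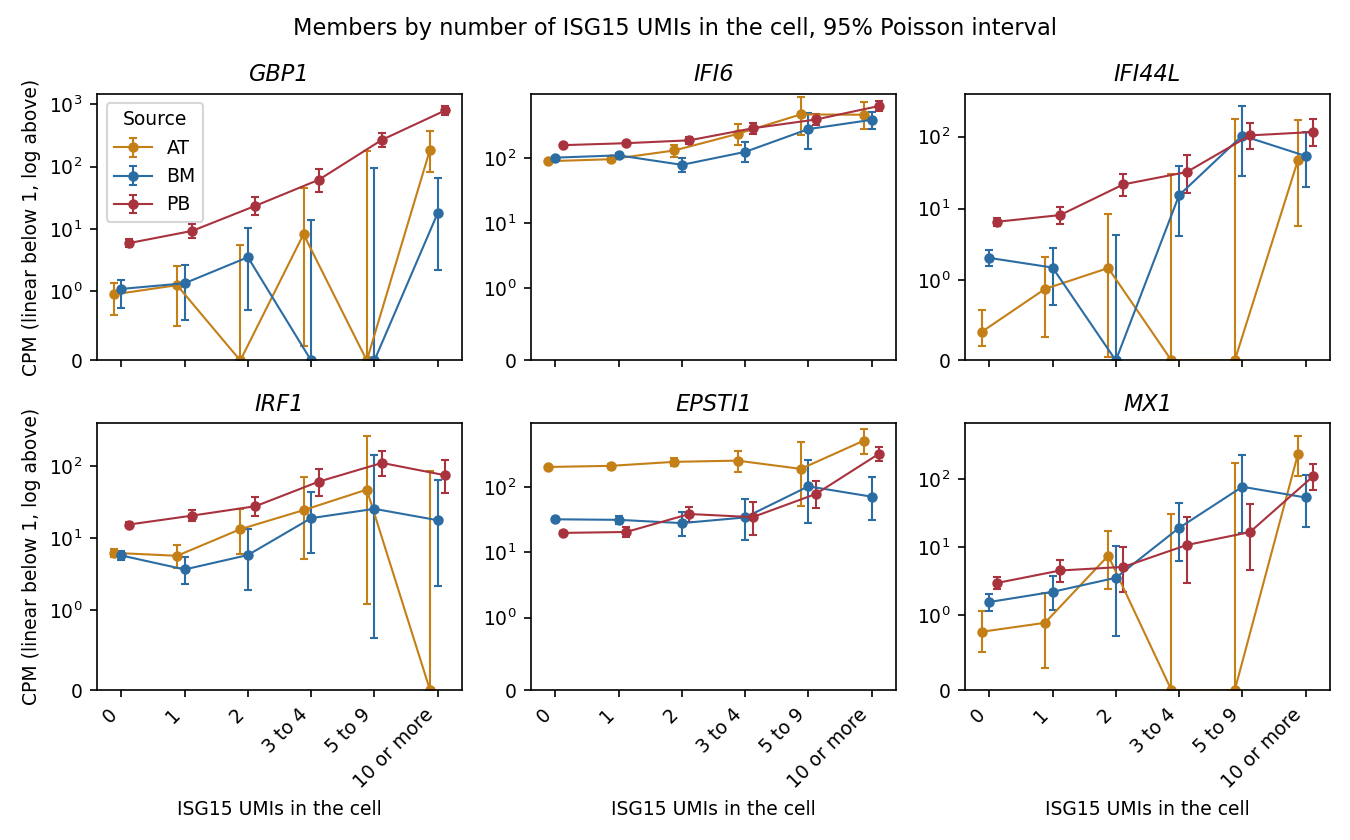
CPM of the other 6 genes (linear below 1, log above) against the number of *ISG15* UMIs in the cell, in classes from 0 to 10 or more, for AT, BM and PB, with exact 95% Poisson intervals of the summed UMIs of each class. *GBP1* in PB runs from 5.92 to 799 CPM, and *EPSTI1* in AT lies between 204 and 255 CPM in all classes below 5 UMIs. The intervals do not cover the spread between cells.

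The members were also found together in the same cells. At least 3 of the other 6 members had a UMI in 32 of 54 *ISG15*-high PB cells (59.3%, 45.03 to 72.4%), beside 4.86% of the other PB cells. In BM this was 6 of 21 (28.6%, 11.3 to 52.2%) beside 1.24%, and in AT 5 of 8 (62.5%, 24.5 to 91.5%) beside 2.45%. With the other members counted after thinning to 2500 UMIs per cell, the shares were 27.8%, 14.3% and 37.5% in PB, BM and AT, beside 0.532%, 0.0360% and 0.185%. The *ISG15*-high cells were here still the 54, 21 and 8 chosen on all UMIs. Conversely, not all cells rich in another member were *ISG15*-high. Of 14 PB cells with 5 or more *GBP1* UMIs, 8 were *ISG15*-high and 2 had no *ISG15* UMI. Of 31 PB cells with 2 or more *IFI44L* UMIs, 13 were *ISG15*-high.

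Among genes at 5 CPM or more with a UMI in 25% or more of the *ISG15*-high cells, 4.37% in BM, 2.52% in PB and 18% in AT were 2-fold higher there. The detection limit used the *ISG15*-high cells only, so genes high there pass it more easily. With this detection limit but no CPM limit, the 15 genes with the largest differences in BM and in PB were as follows. In BM the list of 15 opened with *IFIT3*, which encodes an RNA-binding antiviral protein (20 UMIs in 6 of the 21 cells and 10 UMIs in all the other cells, 6.74 on the log2 scale). Of these 20 UMIs, 6 and 7 lay in the 2 cells with the most *ISG15*. *MX2* followed with 5.87 (10 UMIs, beside 6 in the other 5559 cells). The list went on with a gene without a symbol, ENSECAG00000033029, which was present in 19 of 21 *ISG15*-high BM cells and in 5.56% of the others (591 and 9.83 CPM). The remainder held *IFI44L*, *MX1*, *IRF7*, *OAS3*, *ZNFX1*, *PARP9*, *RNF213*, *OAS2*, *IFIT5*, *IRF9* and 2 more genes without symbols. In PB the order was *GBP1* (5.88), *MX2* (5.83), ENSECAG00000033029 (5.02), *XAF1* (4.60), *DDX60* (4.30), *IRF7* (4.12), *SAMD9L* (4.09) and *DDX58* (3.78), which encodes the RNA sensor RIG-I. *IFI44L*, *SOD2*, *OAS2*, *EPSTI1* and *PSMB9* were in the PB list as well, with 2 genes without symbols. The lists shared 5 genes, 33.3% of each (ENSECAG00000033029, *IFI44L*, *IRF7*, *MX2* and *OAS2*). This overlap depends on the detection limit, which left out *MX1* in PB (3.79, in 24.1% of cells) and *DDX60* in BM (4.77, in 5 of 21 cells). A gene in only 1 of the lists is therefore not read as particular to that source. Of the PB list, *PSMB9* encodes an immunoproteasome subunit and *SOD2* a mitochondrial superoxide dismutase that is an NF-kB target.

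The gene lists for the interferon pathway are given as counts of genes at least 2-fold higher in *ISG15*-high cells, beside the shares of all genes given above. Of the antiviral effectors at 5 CPM or more, 13 of 15 were higher in PB, 8 of 13 in BM and 8 of 11 in AT, with medians of 1.69, 2.00 and 2.60. None in PB, 1 in BM and 1 in AT was 2-fold lower. *IFI27* was at 1415 CPM (1306 to 1531) beside 377 CPM in PB, 1015 CPM (861 to 1189) beside 320 CPM in BM and 1308 CPM (1042 to 1621) beside 404 CPM in AT. *OAS2*, a sensor of double-stranded RNA that activates RNase L, differed by 3.19, 2.69 and 4.24 in PB, BM and AT on the log2 scale. *IRF7*, the factor that amplifies type I interferon, was at 99.9 CPM (72.6 to 134) beside 4.81 CPM in PB, 92.9 CPM (50.8 to 156) beside 6.16 CPM in BM and 158 CPM (75.6 to 290) beside 7.54 CPM in AT. *IRF9* differed by 1.58, 2.42 and 2.98 in the same order.

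For genes that lean to IFN-gamma, 7 of 7 at 5 CPM or more were 2-fold higher in *ISG15*-high cells of PB (median 1.51), 0 of 5 in BM (median 0.30) and 1 of 5 in AT (median 0.20). The 7 genes of PB include *CXCL10* and *CXCL11*, which were below 5 CPM in AT and BM. *CXCL11* passed that limit in PB through its *ISG15*-high cells, with 0.607 CPM in the others, so these counts are not over the same genes. The 5 genes that passed in all 3 sources were *WARS*, *LAP3*, *SERPING1*, *CTSS* and *IRF2*, and all 5 were 2-fold higher in PB. For 3 of them this rested largely on 17 cells with 2 or more *GBP1* UMIs that are described below. In the other 37 *ISG15*-high PB cells, *WARS* was at 345 CPM (282 to 417), *LAP3* at 55.8 CPM (32.5 to 89.3) and *CTSS* at 32.8 CPM (15.7 to 60.4), beside 265, 54.1 and 22.9 CPM in the remaining PB cells. *SERPING1*, at 102 CPM (69.1 to 144) beside 49.98 CPM, and *IRF2*, at 29.5 CPM (13.5 to 56.1) beside 15.3 CPM, stayed near 2-fold higher in the 37 cells. *WARS*, the tryptophanyl-tRNA synthetase induced by IFN-gamma, was at 759 CPM (679 to 844) beside 265 CPM in PB, and at 179 CPM (118 to 261) beside 148 CPM in BM. In antigen presentation 9 of 12 genes were higher in PB (median 1.59), 1 of 12 in BM (0.30) and 3 of 10 in AT (0.67). In the same 37 PB cells *EQMHCB2* was at 286 CPM (229 to 352), *PSMB8* at 39.4 CPM (20.3 to 68.8) and *TAP1* at 6.56 CPM (2 UMIs), beside 194, 25.5 and 12.9 CPM in the remaining PB cells, each below 2-fold higher. *B2M*, the light chain of MHC class I, was at 4978 CPM (4772 to 5191) beside 1747 CPM in PB and at 1606 CPM (1410 to 1821) beside 1149 CPM in BM. The class I gene *EQMHCB2* was at 702 CPM (626 to 785) beside 194 CPM in PB but at 86.3 CPM (45.9 to 148) beside 108 CPM in BM. In the NF-kB response list, 5 of 8 genes were higher in PB, 1 of 6 in BM and 0 of 4 in AT. The medians were 2.25, 0.24 and -1.18, and 1, 1 and 2 genes were 2-fold lower, beside 8.57%, 18.1% and 34.1% of all genes. In AT, 1 gene of the IFN-gamma list and 2 of antigen presentation were also 2-fold lower, and none of these lists in BM or PB. In the 37 cells *CCL2* was at 758 CPM beside 541 CPM, *CCL7* at 118 CPM (82.8 to 164) beside 80.9 CPM, and *ICAM1* had 0 UMIs. *SOD2* was at 684 CPM (609 to 765) beside 73.2 CPM in all *ISG15*-high cells of PB, with 1814 CPM in the 17 and 181 CPM (136 to 235) in the 37 cells. Its 4 UMIs in the BM *ISG15*-high cells were 26.5 CPM beside 44.1 CPM.

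Of the remaining lists, 3 of 6 JAK-STAT genes were 2-fold higher in *ISG15*-high cells of PB, 2 of 6 in BM and 4 of 6 in AT. For nucleic acid sensors and their adaptors the counts were 3 of 6, 4 of 7 and 4 of 7, and for ISG15 conjugation and negative feedback they were 0 of 2, 0 of 2 and 2 of 2. The last 2 were the feedback genes *SOCS1* and *SOCS3*, on 1 UMI each. The other AT counts include *STAT2* and *EIF2AK2* on 1 UMI each and *TBK1* on 2, all under the floor of 47.3 CPM. In BM, *SOCS1* was 2-fold lower, with 0 UMIs beside 19.5 CPM, where the floor is 19.9 CPM. Of the receptors, 0 of 5 in PB, 1 of 5 in BM and 0 of 4 in AT were 2-fold higher. *IL10RB*, the shared chain of the type III receptor and the most abundant gene of that list, was at 145 CPM (112 to 186) beside 120 CPM in PB and at 186 CPM (123 to 269) beside 176 CPM in BM. No interferon gene had a UMI in an *ISG15*-high cell of any source. Over all genes, 2.49% in PB, 5.92% in BM and 12.3% in AT were 2-fold higher.

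**Figure D4:**
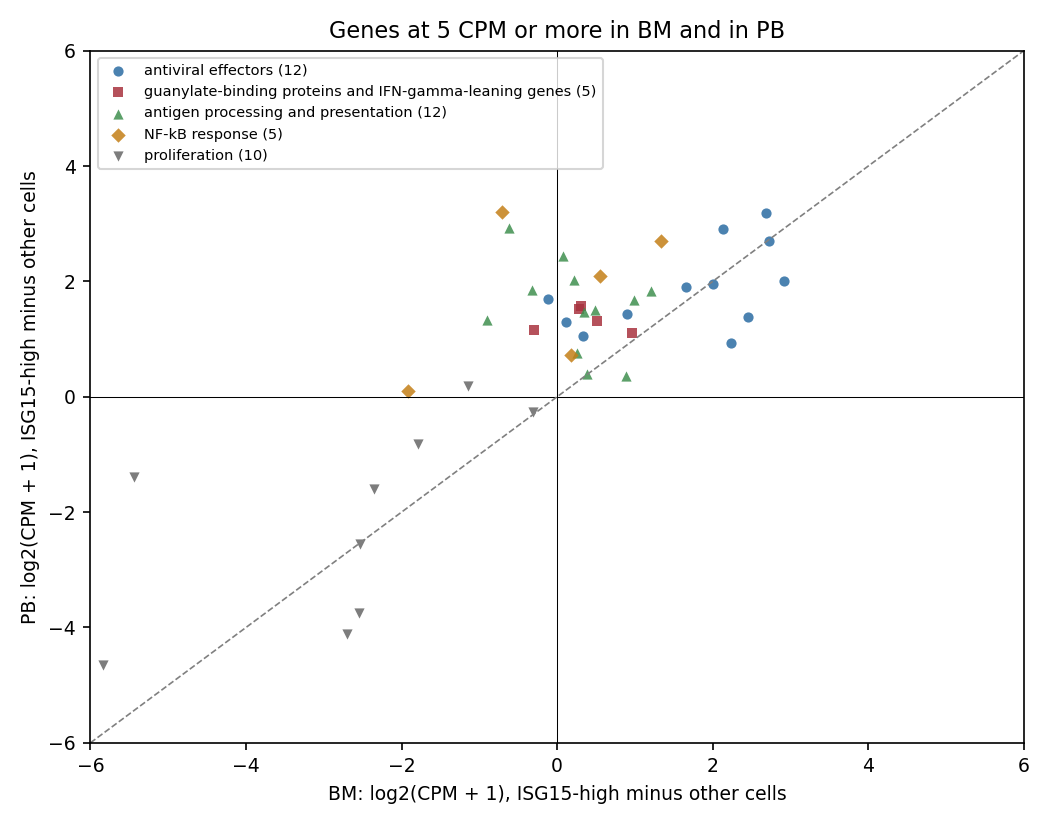
Difference of log2(CPM + 1) between *ISG15*-high and other cells in BM (x axis) and PB (y axis) for 44 genes of 5 lists at 5 CPM or more in both sources, with a dashed line where the differences are equal. Antigen presentation genes (12) lie mostly above the line, antiviral effectors (12) lie on either side of it and above 0 in PB, and most proliferation genes (10) lie below 0 on both axes.

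Proliferation genes were lower in *ISG15*-high cells. Of the list, 10 of 11 genes were at least 2-fold lower in BM, 7 of 10 in PB and 8 of 11 in AT, beside 18.1%, 8.57% and 34.1% of all genes (24%, 11.1% and 46.4% differed 2-fold in either direction). The summed level of the list was 192 CPM (129 to 276) beside 695 CPM in BM, 164 CPM (128 to 206) beside 306 CPM in PB and 236 CPM (132 to 390) beside 311 CPM in AT, where the interval included the level of the other cells. *CCNB1*, the cyclin of mitotic entry, had 0 UMIs in the *ISG15*-high cells of all 3 sources, where the floor of 3 UMIs is 47.3 CPM in AT, 19.9 CPM in BM and 6.81 CPM in PB, beside 26.0, 56.3 and 24.1 CPM in the other cells. The replication factor *PCNA* was an exception in PB, at 90.8 CPM beside 80.0 CPM. These 2 genes were named after their values were seen. In AT, 8 of the 11 genes had 0 UMIs in the *ISG15*-high cells, at a depth where 3 UMIs are 47.3 CPM. The list as a whole was also highest in BM, at 693 CPM, beside 311 CPM in AT and 304 CPM in PB.

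The *ISG15*-high cells of PB varied widely in *GBP1* content, and the split at 2 UMIs used here was made after the values were seen. Of the 54 cells, 30 had no *GBP1* UMI, 7 had 1 and 17 had 2 or more. Those 17 had a median of 7751 UMIs and 5 to 86 *ISG15* UMIs, and the other 37 had 8399 UMIs and 5 to 45 *ISG15* UMIs. In the 17 cells, *CXCL10*, a chemokine that attracts activated T cells, was at 6548 CPM (6124 to 6993), beside 16.4 CPM (5.33 to 38.3) in the other 37. *CXCL10* UMIs were found in 10 of the 17 cells, with 234 and 228 UMIs in the richest, while 7 of the 9 cells with 2 to 4 *GBP1* UMIs had none, and the 17 cells held 74.3% of all 1195 *CXCL10* UMIs of PB. *CXCL11*, a ligand of the same receptor, had 426 of its 451 PB UMIs there, in 6 cells, of which 1 cell held 54.9% of the 426. AT and BM had 9 and 1 *CXCL10* UMIs in all.

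Transcripts of the MHC class II gene *DRA* and of *CD74*, the invariant chain, appeared in the same PB cells. *DRA* had 47 UMIs in 7 of the 17 cells and 9 in all the other PB cells, and *CD74* had 47 UMIs in 5 of the 17 and 5 elsewhere in PB. *DRB*, a class II gene named after its values were seen, was not confined in this way. It was at 44.2 CPM (16.2 to 96.3) in the 17 cells and 19.7 CPM (7.23 to 42.9) in the other 37, from 6 UMIs each. In AT, 12.9% of all retained cells had a *DRB* UMI. A single cell, with 78 *GBP1* UMIs, held 34 of the *CD74* and 23 of the *DRA* UMIs, together with 17 UMIs of *COL1A1* and 28 of *LUM*. *GBP5* was at 450 CPM (344 to 578) beside 6.56 CPM (2 UMIs), *CCL2* at 5833 CPM (5433 to 6254) beside 758 CPM and *B2M* at 9778 CPM (9259 to 10319) beside 2842 CPM. A single cell held 44.3% of the *GBP5* and another 44.4% of the *CCL2* UMIs of the 17 cells, whose medians were 1 and 4 UMIs per cell, and the intervals do not cover this spread between cells. Among antiviral genes and their regulators, the 2 sets of cells had overlapping intervals for some genes and not for others. *IFI44L* was at 140 CPM (84.4 to 219) with and 95.2 CPM (63.7 to 137) without 2 or more *GBP1* UMIs, *IRF9* at 81.1 CPM (40.5 to 145) and 65.6 CPM (40.1 to 101), and *IFI6* at 634 CPM (507 to 783) and 453 CPM (380 to 535). By contrast, *DDX58* was at 391 CPM (293 to 511) and 39.4 CPM (20.3 to 68.8), *EPSTI1* at 457 CPM (351 to 586) and 72.2 CPM (45.2 to 109), and *IFI35* at 221 CPM (149 to 316) and 52.5 CPM (30.01 to 85.3). The collagen gene *COL1A1* was at 5132 CPM in the 17 and 5464 CPM in the 37 cells. Of the 47 PB cells with 2 or more *GBP1* UMIs, 30 were not *ISG15*-high, and 7 of these 30 had *CXCL10*, up to 58 UMIs.

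In AT, 2 of the 8 *ISG15*-high cells had 2 or more *GBP1* UMIs (4 and 2), and neither had *CXCL10*. In BM none of the 21 did, and the cells with 93 and 83 *ISG15* UMIs had no *GBP1*, *EPSTI1* or *MX1* UMI. These 2 cells did hold other interferon-stimulated genes, with 5 and 2 *IFI6*, 6 and 7 *IFIT3* and 3 and 3 *IFIT5* UMIs.

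**Figure D5:**
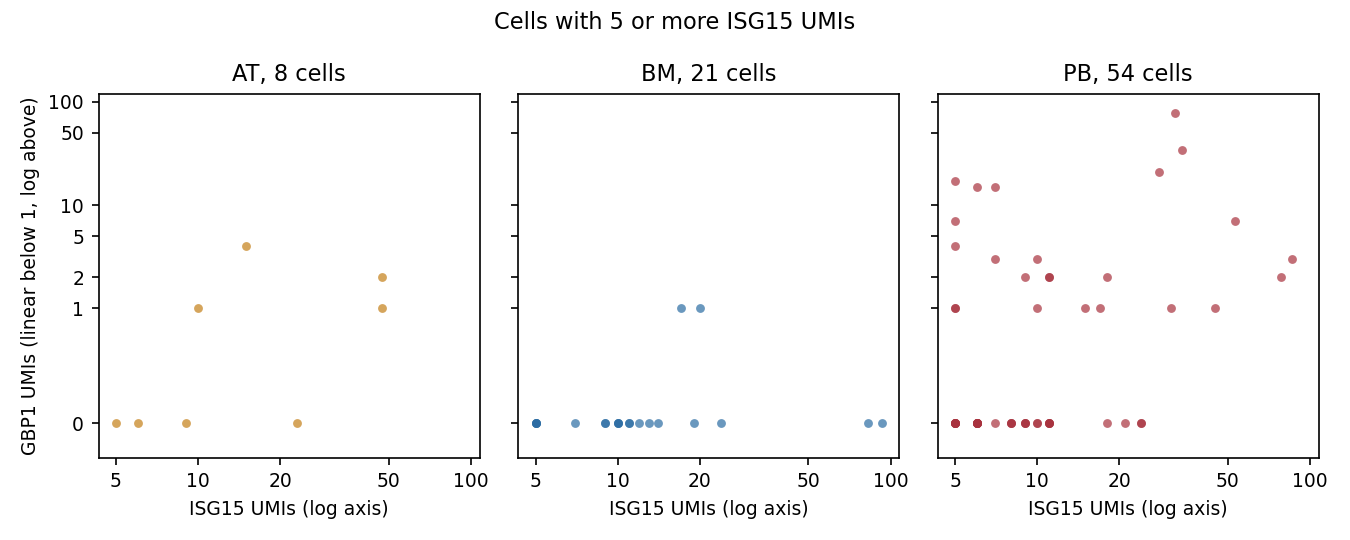
*GBP1* UMIs (linear below 1, log above) against *ISG15* UMIs (log axis) in each cell with 5 or more *ISG15* UMIs, for AT (8 cells), BM (21 cells) and PB (54 cells). In BM no cell has more than 1 *GBP1* UMI, and in PB *GBP1* reaches 78 UMIs while cells with 0 *GBP1* UMIs are found up to 24 *ISG15* UMIs.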

How the data were processed

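Single MSCs of AT, BM and PB from 1 mare were sequenced as 1 library per source. Per the study's methods, the authors used Cell Ranger for barcode assignment and for alignment to EquCab3.0, and counted UMIs per gene with ESAT, including reads just downstream of annotated genes. The values the authors deposited are these whole-number counts per gene and barcode, without normalization. They left out overlapping gene intervals and counted duplicated features with scaled multimapping, which could change genes with close paralogs such as *GBP1* and *MX1*. The sources used here do not say whether multiplets called by the authors were taken out before deposit.

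The limits of the methods were applied to the counts, which keeps barcodes between 2500 and 15000 UMIs with no more than 3% on chromosome MT. Levels are CPM of summed UMIs, and differences are of log2(CPM + 1), called past 1. Genes at 5 CPM or more form the background. Cells were thinned to 2500 UMIs without replacement (NumPy 2.4.6). Intervals are from SciPy 1.17.1, doublet scores from Scrublet in Scanpy 1.11.5 and TMM factors from edgeR 4.0.16, which was used for nothing else. The arithmetic was tested on simulated counts. The authors' test across single cells was not repeated, since cells of 1 library are not replicates.

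All 7 members are named. Of each interferon-related list, the 4 genes with the most UMIs and those differing 2-fold between *ISG15*-high and other cells of BM or PB could be named, as could the 15 genes with the largest difference in each. The members, lists and limits were chosen with earlier results of these data known. Alternatives were other limits for barcodes and *ISG15*, removal of high Scrublet scores or of *ISG15*-high cells, thinning, TMM factors, a pseudocount of 25 CPM, no minimum CPM and means of single-cell CPM. AT without barcodes of the PB matrix was added after seeing the data. Of the list symbols, 31 had no row in the matrices and were not analysed, and 1 gene of the lists is not reported here. Neighbouring genes come from the RefSeq table of another assembly, in which 6 of the 7 members were matched by symbol.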

Additional observations from a re-analysis of the deposited data

Results flagged for a closer look

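Cells rich in *ISG15* also occurred among the barcodes that the limits removed, which enter the comparisons above only under other limits. In AT, 5 removed barcodes had 5 or more *ISG15* UMIs, all of them below 2500 UMIs. Of these 5, 4 barcodes were retained in the PB library, and all 4 were *ISG15*-high there. In BM, 5 removed barcodes had 5 or more, of which 4 lay above 15000 UMIs and 1 above 3% mitochondrial UMIs, with up to 192 *ISG15* UMIs. In PB, 3 removed barcodes had 5 or more, all above 15000 UMIs, where they made up 1.16% of 259 barcodes. These barcodes were picked for holding 5 or more *ISG15* UMIs, and there are no control samples to compare them with.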

How the results depend on the processing

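No paired analysis was possible because each source had 1 library. The number of members 2-fold apart between AT and BM was 1 instead of 2 with all barcodes of at least 500 UMIs, with TMM factors and with a pseudocount of 25 CPM. Of the AT barcodes below 2500 UMIs, 92.8% are also in the PB matrix, so the value with 500 UMIs may not describe AT cells. With that pseudocount it was also 1 instead of 5 (AT and PB) and 0 instead of 3 (BM and PB), and the background fell to 2.33%, 2.07% and 1.42% of genes. Without a minimum CPM the background was 7.28%, 7.03% and 5.47%. The share of *ISG15*-high cells in AT, BM and PB was 0.0555%, 0.161% and 0.320% at 2500 UMIs per cell, 0.426%, 0.950% and 1.90% with a limit of 3 *ISG15* UMIs, and 0.470% in PB with a limit of 10. The other members higher in *ISG15*-high cells numbered 3 instead of 5 in AT after thinning and 3 instead of 6 in BM with the pseudocount of 25 CPM. Differences changed sign for *IFI44L* in AT (-0.53, thinned), *IRF1* in AT (-2.91 thinned, -2.89 with a limit of 10), *EPSTI1* in BM (-5.05, thinned) and *SAMHD1* in PB (-0.14, limit of 10), with 3, 9 and 17 *ISG15*-high cells left after thinning and 5, 14 and 25 at the limit of 10. Apart from *SAMHD1*, the *ISG15*-high cells left held no UMI of the gene, so these values give no direction. For *SAMHD1* the cause was not tested. The removal of AT barcodes that the PB matrix holds was chosen after seeing the data and left 8 *ISG15*-high cells in AT. Depth limits *GBP1*, *IFI44L* and *MX1* in AT and BM most. With 1 library per source, library cannot be told apart from source. All sources came from 1 mare, so other animals are not covered.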
